A study of Homo sapiens with 6 samples.

Results

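CDK11 is a cyclin-dependent kinase that human cells encode by a duplicated gene pair, CDK11A and CDK11B, and its RNA was measured here together with that of its cyclin partners CCNL1 and CCNL2, of CCND3 and of SAP30BP. The members were all probe sets of the array whose platform gene symbol was one of these 6 genes, with the CDK11 probe sets taken when they were assigned to both CDK11A and CDK11B. This gave 16 of 54675 probe sets, namely 5 for CDK11A/CDK11B, 4 for CCNL1, 3 for CCNL2, 2 for CCND3 and 2 for SAP30BP. Total RNA of KHOS and U-2OS, both human osteosarcoma cell lines, was hybridised to Affymetrix U133 Plus 2.0 arrays, with 1 array for each of 3 conditions in each line. The study used these arrays to look for genes whose expression depends on CDK11. The conditions were CDK11 siRNA at 40 nM, nonspecific siRNA at 40 nM, and no transfection. RNA was collected 48 hours after CDK11 siRNA transfection, a time that the study's methods give for that siRNA, and RNA of 3 flasks was pooled for each array. The study's methods name a single CDK11 siRNA, directed at the coding region, and a lipid reagent for transfection. Whether the untransfected cells received that reagent is not given in the sources used here.

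The CDK11 kinase binds an L-type cyclin in the nucleus, and the complex acts in pre-mRNA splicing and in transcription by RNA polymerase II. CDK11 phosphorylates SF3B1, a subunit of the U2 snRNP, during activation of the spliceosome. SAP30BP is a nuclear protein reported to join CDK11 and cyclin L in this complex and to act in splicing. A shorter CDK11 protein, made from an internal start site in mitosis, was found with cyclin D3, the product of CCND3, which otherwise activates CDK4 and CDK6 to phosphorylate the retinoblastoma protein. The study reports that it did not detect this shorter CDK11 protein in osteosarcoma cell lines. Osteosarcoma is a bone tumour, and both lines are long established cultures of it.

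The deposited values are log2 signals on a common scale, with medians of all probe sets between 2.92 and 2.98 on the 6 arrays. The signal limit was set at 100, which is 6.64 in log2, and between 24.8% and 25.9% of the probe sets of each array lay above it. Probe sets that exceeded the limit on at least 1 of the 6 arrays were kept, which held for 16397 of all probe sets and for 8 of the 16 member probe sets. Among the osteoblast lineage markers reported here, RUNX2, SPARC and COL1A1 were above the limit, while SP7, ALPL, COL1A2, IBSP and SPP1 had no probe set above it. RUNX2, the transcription factor that starts osteoblast differentiation, had log2 signals of 10.24 with CDK11 siRNA, 9.60 with nonspecific siRNA and 9.51 untransfected in KHOS, and of 5.68, 4.39 and 7.03 in the same conditions of U-2OS. Of the 3 blood cell markers with a probe set of their own, 0 were above the limit. The mesenchymal markers VIM, THY1 and ENG passed the limit on at least 1 array, THY1 in U-2OS alone. Of the 5 epithelial markers EPCAM, KRT8 and KRT18 passed it, EPCAM in KHOS alone. With 1 array per condition and line, no spread between replicates exists within a line; precision is limited by how few arrays there are. These are bulk samples, in which fewer cells of a type and less RNA per cell cannot be told apart.

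CDK11A and CDK11B lie near each other on human chromosome 1, with 1 protein coding gene between them, and CCNL2 lies on the same chromosome with 13 protein coding genes between it and CDK11B. The pair is alike also upstream of the transcription start. The 5 CDK11 probe sets cannot be read as either gene alone, but the bases upstream of the start are not what they detect. The sequences below are the matching stretches of the 250 bases upstream of each start, from the RefSeq annotation of GRCh38.p14. They are shown for their likeness alone. Each is written 5′ to 3′ in the direction of transcription, on the minus strand, and capitals mark bases that differ from the other gene or have no partner in it.
CDK11A, chr1:1724358-1724565: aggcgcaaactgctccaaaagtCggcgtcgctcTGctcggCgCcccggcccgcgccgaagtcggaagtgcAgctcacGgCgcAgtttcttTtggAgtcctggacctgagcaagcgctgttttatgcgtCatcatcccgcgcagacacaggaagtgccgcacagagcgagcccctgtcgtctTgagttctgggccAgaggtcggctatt
CDK11B, chr1:1659032-1659254: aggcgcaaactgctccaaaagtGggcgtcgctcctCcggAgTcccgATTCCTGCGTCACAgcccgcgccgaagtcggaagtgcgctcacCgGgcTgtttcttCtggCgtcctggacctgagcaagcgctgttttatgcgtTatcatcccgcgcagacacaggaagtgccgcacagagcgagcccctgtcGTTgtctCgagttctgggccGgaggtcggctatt
Over 226 aligned columns, 194 were identical (85.8%), 11 were mismatched and 21 were gapped. CDK11A has 14 capitals and CDK11B has 29, with the longest run of them in CDK11B. Both stretches hold the ETS core GGAAGTG 2 times, at places where the 2 genes are alike, and 1 of 3 upstream windows of CCND3 holds it too. Of 35116 upstream windows of this length, 9.28% hold this motif at least 1 time on either strand. The CCAAT box, searched as CCAAT on both strands, was found in the upstream windows of CDK11B, CCNL2 and SAP30BP and in 2 of 3 for CCND3, against 32.0% of all windows. The full cAMP response element TGACGTCA was found upstream of CCNL1 alone among the members and in 1.65% of all windows. The motifs were chosen after the sequences were seen.

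The CDK11 RNA had less signal after CDK11 siRNA in either line, by each of its 5 probe sets, though by little for 2 dim ones in U-2OS. The brightest, 212401_s_at, had log2 signals of 7.64 with CDK11 siRNA, 9.92 with nonspecific siRNA and 9.69 untransfected in KHOS. In U-2OS the same probe set had 6.24 with CDK11 siRNA, 8.88 with nonspecific siRNA and 8.97 untransfected. On both lines' arrays the CDK11 siRNA value stood apart, while the 2 controls differed by 0.24 in KHOS cells and by -0.08 in U-2OS (nonspecific siRNA minus untransfected, log2). On the linear scale 20.6% of the nonspecific siRNA signal was left in KHOS cells and 16.0% in U-2OS, and against untransfected cells 24.2% and 15.05% were left. The U-2OS cells with CDK11 siRNA were the only ones of the 6 in which this probe set was below the signal limit.

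The second CDK11 probe set above the limit, 211289_x_at, had 5.16 with CDK11 siRNA, 7.48 with nonspecific siRNA and 7.16 untransfected in KHOS. In U-2OS it had 3.75, 6.51 and 6.84 in the same conditions. Its name ends in _x_at, the platform's mark for probes that may hybridise to other transcripts as well. The log2 differences of CDK11 siRNA minus nonspecific siRNA were -2.32 in KHOS cells and -2.76 in U-2OS, close to the -2.28 and -2.65 of the brightest probe set. Against untransfected cells they were -1.996 in KHOS cells and -3.09 in U-2OS. This probe set was kept through its control arrays, and its signal with CDK11 siRNA was below the limit in both lines, so that the sizes of its differences are not exact.

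**Figure D1:**
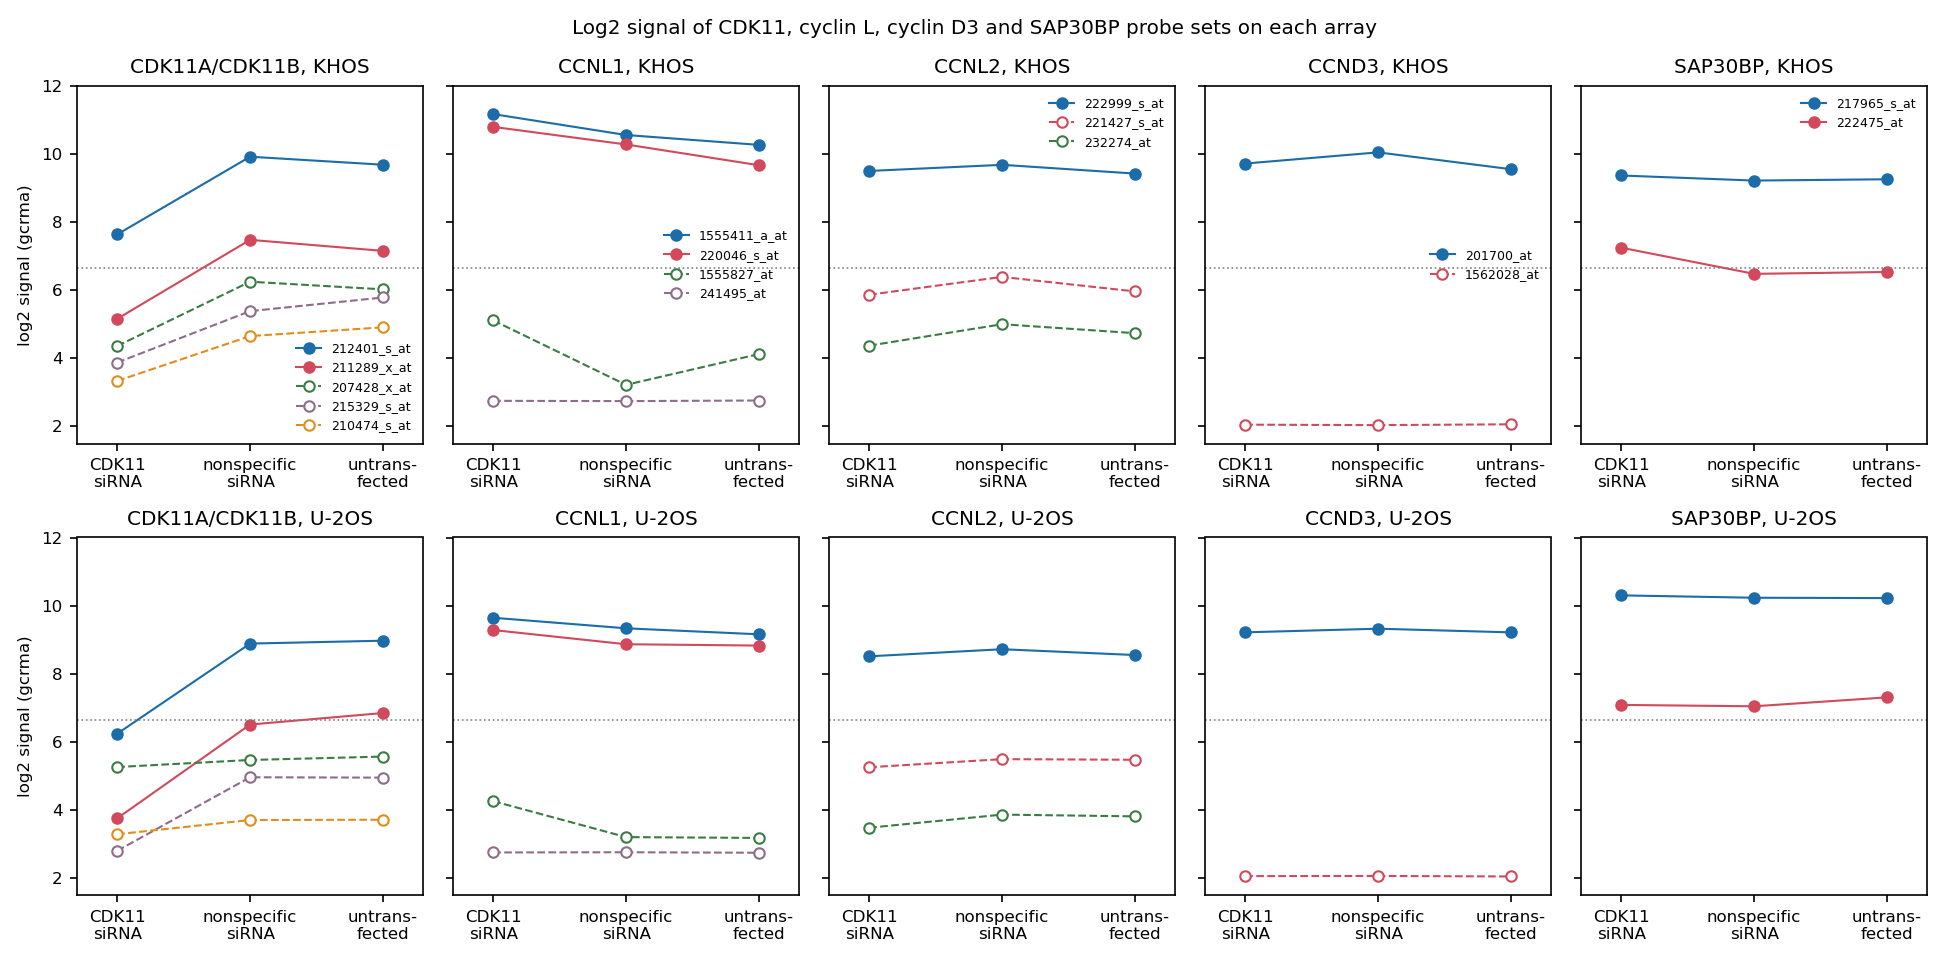
Log2 signal (y axis) of each member probe set with CDK11 siRNA, with nonspecific siRNA and untransfected (x axis), with KHOS in the upper row and U-2OS in the lower row and 1 array per point. Filled points are probe sets kept by the signal limit of 6.64 (dotted line), open points are those below it on all arrays, and lines join the points of a probe set only to guide the eye. The CDK11 probe sets were lowest with CDK11 siRNA in both lines, and the 2 bright CCNL1 probe sets were highest.

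The remaining 3 CDK11 probe sets never reached the signal limit, and they varied more between the lines. For 215329_s_at the signals were 3.88 with CDK11 siRNA, 5.39 with nonspecific siRNA and 5.79 untransfected in KHOS cells, and 2.80, 4.96 and 4.95 in U-2OS. Its differences from nonspecific siRNA were -1.51 in KHOS cells and -2.16 in U-2OS. For 207428_x_at the signals were 4.36, 6.25 and 6.03 in KHOS cells, and 5.26, 5.47 and 5.57 in U-2OS. For 210474_s_at they were 3.34, 4.66 and 4.91 in KHOS cells, and 3.29, 3.70 and 3.71 in U-2OS. These 2 probe sets thus had differences of -1.89 and -1.32 in KHOS but of -0.21 and -0.42 in U-2OS, and whether the lines differed in this could not be tested. Differences like those in U-2OS were not rare, since 18.5% and 7.93% of the kept probe sets lay lower there. The name of 207428_x_at also ends in _x_at.

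The size of a difference was judged against all kept probe sets, by the mean and SD of the log2 difference in each line. The SD was 0.449 in KHOS cells and 0.365 in U-2OS for CDK11 siRNA minus nonspecific siRNA, so that 3 SD bounds lay at -1.35 and 1.35 in KHOS cells and at -1.07 and 1.12 in U-2OS. Beyond the lower bound lay 2 of the 8 kept member probe sets in KHOS and the same 2 in U-2OS, both of CDK11. Of all kept probe sets, 0.732% in KHOS and 0.89% in U-2OS lay there. Both CDK11 probe sets measure the RNA that the CDK11 siRNA targets. Of the 2, 211289_x_at exceeded the signal limit on control arrays alone, so the filter favoured its place on the lower side. With the mean of the 6 arrays above the limit as filter, 1 of 7 members lay beyond 3 SD in each line. Beyond the upper bound lay 0 of the 8 in either line, where 0.653% of all kept probe sets in KHOS cells and 0.976% in U-2OS did. Among the kept differences, 11 probe sets in KHOS lay lower than 212401_s_at, and in U-2OS 2 did. Against untransfected cells the same 2 CDK11 probe sets were beyond 3 SD on the lower side, against 0.604% of kept probe sets in KHOS cells and 0.951% in U-2OS.

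**Figure D2:**
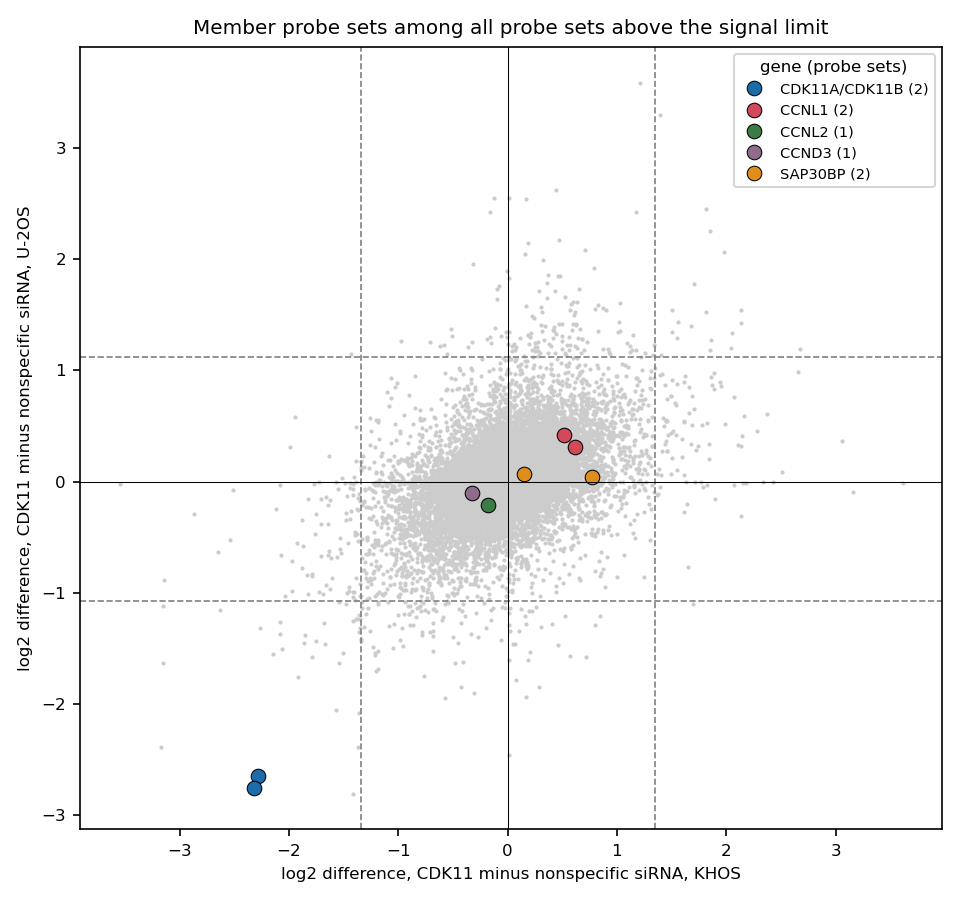
Log2 difference of CDK11 siRNA minus nonspecific siRNA in KHOS (x axis) and in U-2OS (y axis), with 1 grey point for each of the 16397 kept probe sets, larger coloured points for the 8 kept member probe sets, and dashed lines at the 3 SD bounds. The 2 CDK11 probe sets lay in the lower left corner, and the other 6 members lay inside all bounds.

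The lines are the only replication across conditions, and limma was fitted with cell line as a block and 2 residual degrees of freedom. No probe set passed Benjamini-Hochberg adjustment at 0.05 in any of the 3 contrasts (0% of 16397), while 2337 had an unadjusted p under that value for CDK11 siRNA minus nonspecific siRNA and 3162 for CDK11 siRNA minus untransfected. The brightest CDK11 probe set had a log2 difference of -2.46 ± 0.195 (SE, limma, 2 lines, adjusted p = 0.146) against nonspecific siRNA and ranked 4 among the 16397 kept probe sets by p. The other had -2.54 ± 0.278 (SE, limma adjusted p = 0.146). Under a variance prior that follows the signal level, the same limma contrast called 211 probe sets, with both CDK11 probe sets among them (adjusted p = 0.00605 and 0.0170). These p-values treat the 2 lines as replicates and cover the spread between the lines, not between cultures of a line.

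CCNL1, the gene of cyclin L1, was higher with CDK11 siRNA than in either control in both lines, by 3 of its 4 probe sets, with differences that stayed within the 3 SD bounds for the bright ones. The brightest, 1555411_a_at, had log2 signals of 11.17 with CDK11 siRNA, 10.56 with nonspecific siRNA and 10.27 untransfected in KHOS. In U-2OS it had 9.64, 9.33 and 9.16 in the same conditions. The signal with CDK11 siRNA was 1.53 times that with nonspecific siRNA in KHOS and 1.24 times in U-2OS, and 1.87 and 1.401 times that of untransfected cells.

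The second bright CCNL1 probe set, 220046_s_at, had 10.80 with CDK11 siRNA, 10.28 with nonspecific siRNA and 9.67 untransfected in KHOS. In U-2OS it had 9.28, 8.86 and 8.83. Its log2 differences against nonspecific siRNA were 0.52 in KHOS cells and 0.42 in U-2OS, beside 0.61 and 0.31 for the brightest probe set. Differences of this size were not rare, since 6.39% and 9.07% of the kept probe sets in KHOS cells and 15.2% and 9.72% in U-2OS, lay higher than 1555411_a_at and 220046_s_at. In KHOS the nonspecific siRNA array was itself above the untransfected one, by 0.29 and 0.61 for the 2 probe sets, against 0.18 and 0.04 in U-2OS.

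Neither CCNL1 probe set passed adjustment. With limma the log2 difference of 1555411_a_at against nonspecific siRNA was 0.46 ± 0.151 (SE, unadjusted p = 0.0302, adjusted p = 0.303), and that of 220046_s_at was 0.47 ± 0.202 (SE, adjusted p = 0.390). Against untransfected cells the values were 0.70 ± 0.151 (SE, limma adjusted p = 0.148) and 0.79 ± 0.202 (SE, limma adjusted p = 0.170). With the variance prior that follows the level, 1555411_a_at passed against untransfected cells (limma adjusted p = 0.0414), whereas 220046_s_at did not (limma adjusted p = 0.0551), and neither passed against nonspecific siRNA (limma adjusted p = 0.165 and 0.250).

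A further CCNL1 probe set, 1555827_at, was dim on all arrays, with 5.12 with CDK11 siRNA, 3.22 with nonspecific siRNA and 4.13 untransfected in KHOS cells, and 4.26, 3.20 and 3.18 in U-2OS. It was again highest with CDK11 siRNA in both lines, with log2 differences of 1.89 and 1.06 against nonspecific siRNA that rest on signals below the limit. The last, 241495_at, stayed between 2.74 and 2.76 on all 6 arrays and carried no measurable signal. Which CCNL1 transcripts each probe set detects is not given in the sources used here.

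CCNL2, which encodes cyclin L2, did not share the higher signal of CCNL1. Its bright probe set, 222999_s_at, had log2 signals of 9.50 with CDK11 siRNA, 9.69 with nonspecific siRNA and 9.43 untransfected in KHOS cells, and of 8.51, 8.72 and 8.55 in U-2OS. The CDK11 siRNA value lay between the controls in KHOS and 0.04 below the lower control in U-2OS. The difference from nonspecific siRNA was -0.18 in KHOS cells and -0.21 in U-2OS (limma -0.19 ± 0.118, SE, adjusted p = 0.513), and limma gave 0.02 against untransfected cells (adjusted p = 0.948).

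The 2 dimmer CCNL2 probe sets were lowest with CDK11 siRNA in both lines. For 221427_s_at the signals were 5.87 with CDK11 siRNA, 6.39 with nonspecific siRNA and 5.97 untransfected in KHOS cells, and 5.25, 5.49 and 5.47 in U-2OS. For 232274_at they were 4.37, 5.004 and 4.74 in KHOS cells, and 3.48, 3.86 and 3.81 in U-2OS. All of these lay below the signal limit, with log2 differences from nonspecific siRNA between -0.63 and -0.24.

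The L-type cyclins were set against each other by the change of the brightest CCNL1 probe set minus the change of the brightest CCNL2 probe set. For CDK11 siRNA minus nonspecific siRNA this was 0.79 in KHOS cells and 0.52 in U-2OS on the log2 scale. For CDK11 siRNA minus untransfected it was 0.83 in KHOS cells and 0.52 in U-2OS, a comparison that shares the CDK11 siRNA arrays. Between the controls, as nonspecific siRNA minus untransfected, it was 0.03 in KHOS cells and 0.0060 in U-2OS. This near equality did not hold for the other bright CCNL1 probe set, 220046_s_at. Between the controls 220046_s_at changed by 0.61 in KHOS cells and 0.04 in U-2OS, beside 0.26 and 0.17 for 222999_s_at of CCNL2. These are values of single arrays with no test.

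**Figure D3:**
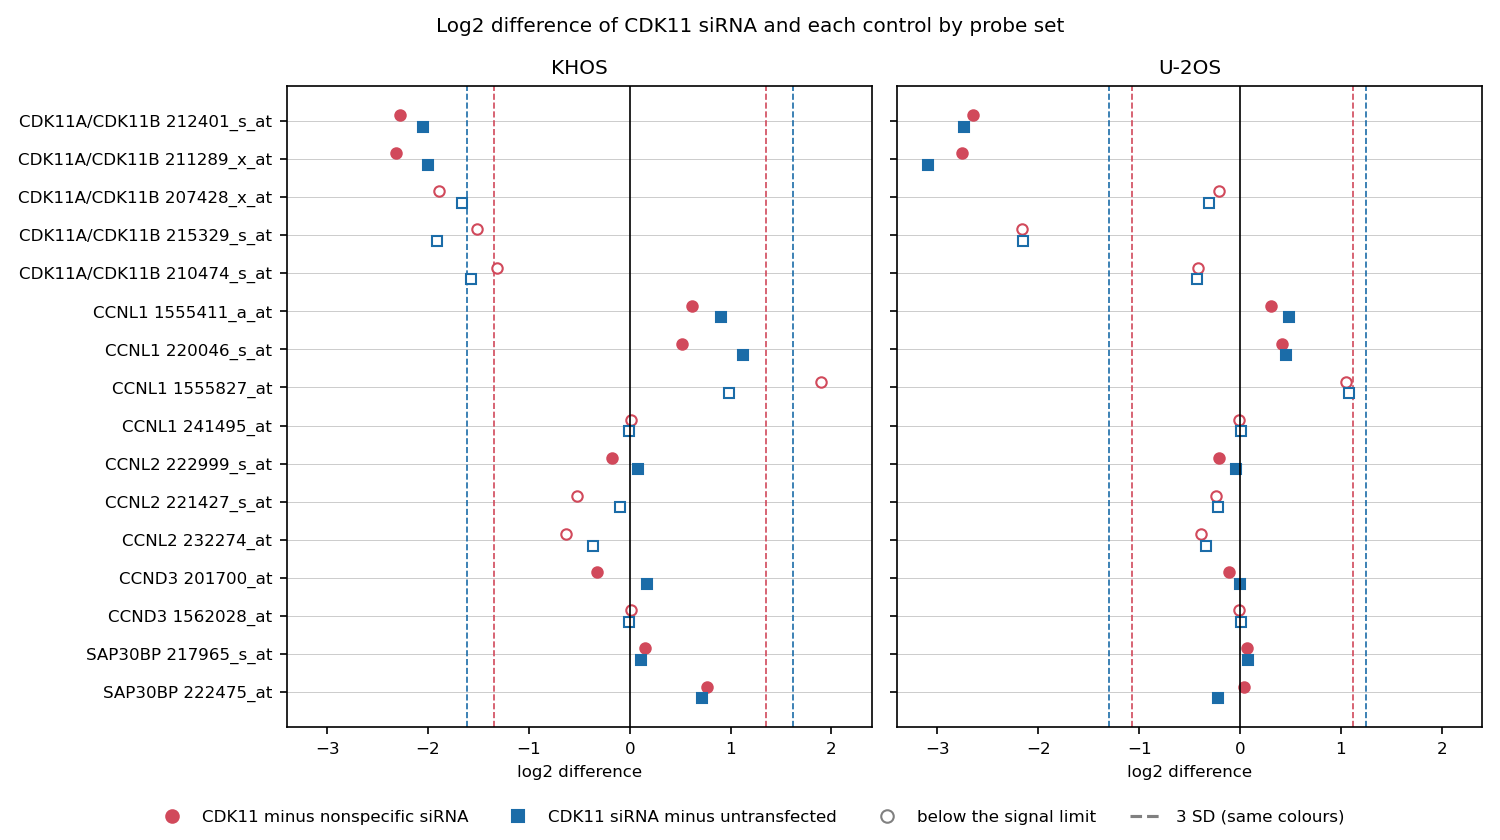
Log2 difference (x axis) of CDK11 siRNA minus nonspecific siRNA (red circles) and of CDK11 siRNA minus untransfected (blue squares) for the 16 member probe sets (y axis) in KHOS and U-2OS, with open symbols for probe sets below the signal limit and dashed lines at the 3 SD bounds of the same colour. Both bright CDK11 probe sets lay below the lower bounds in both lines, and no kept probe set of the other genes lay beyond any bound.

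CCND3 had 1 probe set with signal, 201700_at, at 9.72 with CDK11 siRNA, 10.05 with nonspecific siRNA and 9.56 untransfected in KHOS cells, and at 9.21, 9.32 and 9.21 in U-2OS. In both lines the nonspecific siRNA array was the highest of the 3. The difference of CDK11 siRNA minus nonspecific siRNA was -0.33 in KHOS cells and -0.11 in U-2OS, and against untransfected cells it was 0.17 and 0.00089. With limma the estimates were -0.22 ± 0.145 (SE, adjusted p = 0.551) and 0.08 (adjusted p = 0.787) against these controls. The other CCND3 probe set, 1562028_at, stayed between 2.04 and 2.06 on all arrays.

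SAP30BP was measured by 217965_s_at at 9.37 with CDK11 siRNA, 9.22 with nonspecific siRNA and 9.26 untransfected in KHOS cells, and at 10.30, 10.23 and 10.22 in U-2OS. The CDK11 siRNA array was the highest of its 3 in both lines, but by no more than 0.15 on the log2 scale (limma 0.11 ± 0.116 against nonspecific siRNA, SE, adjusted p = 0.713). The dimmer 222475_at had 7.25 with CDK11 siRNA, 6.48 with nonspecific siRNA and 6.54 untransfected in KHOS cells, and 7.08, 7.04 and 7.31 in U-2OS. Its difference from nonspecific siRNA was 0.77 in KHOS, a value that 3.79% of kept probe sets exceeded, and 0.04 in U-2OS (limma 0.40 ± 0.253, SE, adjusted p = 0.525). The 2 probe sets of the gene therefore differed in KHOS, where the dimmer one moved across the signal limit.

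Counting the order of the 3 arrays in each line, the CDK11 siRNA array was the lowest in both lines for 2 of the 8 kept member probe sets, against 19.1% of all kept probe sets, and for 7 of all 16 members, against 8.74% of all probe sets. The 2 were those of CDK11, and the 7 were the 5 CDK11 probe sets and the 2 dim ones of CCNL2. Of the 2 kept ones, 211289_x_at exceeded the limit on control arrays alone, so the filter favoured this order for it. The CDK11 siRNA array was the highest in both lines for 3 of the 8, against 20.1%, and for 4 of all 16, against 8.52%. The 4 were 3 probe sets of CCNL1, of which 1 was below the limit, and 217965_s_at of SAP30BP.

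The lines did not overlap in level for 7 of the 16 member probe sets, whatever the transfection. The share of all probe sets without overlap was not computed, so this count cannot be read as particular to the members. All 3 KHOS arrays lay above all 3 U-2OS arrays for both bright CCNL1 probe sets, for the 3 CCNL2 probe sets and for 201700_at of CCND3. The line means differed by 1.29 and 1.26 for CCNL1, by 0.95, 0.67 and 0.99 for CCNL2 and by 0.53 for CCND3 (KHOS minus U-2OS, log2). SAP30BP ran the other way, since 217965_s_at spanned 9.22 to 9.37 in KHOS and 10.22 to 10.30 in U-2OS, a difference of -0.97. For the bright CCNL1 probe sets the distance between the lines was larger than any difference between transfections, which spanned 0.90 and 1.13 in KHOS cells and 0.49 and 0.46 in U-2OS. The ranges of the 2 lines overlapped for all CDK11 probe sets, but only because the CDK11 siRNA array of KHOS was low. Both KHOS controls lay above both U-2OS controls for each of these probe sets. For 212401_s_at the controls had 9.92 and 9.69 in KHOS cells and 8.88 and 8.97 in U-2OS.

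Genes linked to the members by function were described by the brightest kept probe set of each gene. Over all 8878 genes with such a probe set, the median log2 difference of CDK11 siRNA minus nonspecific siRNA was 0.0024 in KHOS cells and 0.0087 in U-2OS, 31.0% were lower and 33.2% higher in both lines. Beyond the lower 3 SD bound lay 64 of these genes in KHOS cells and 63 in U-2OS, and beyond the upper bound 53 and 67. With so few, a count of 0 in a short list says little. None of the 8878 passed limma, so that count was fixed at 0 for every list. Of 22 reported partners and substrates of CDK11, 21 were measured, with medians of 0.016 in KHOS cells and -0.010 in U-2OS, and 8 were lower and 8 higher in both lines. By these probe sets no gene of this list was beyond 3 SD, and 0 passed the limma test. CBX5 had -0.11 in KHOS cells and 0.38 in U-2OS by its brightest probe set. The study lists CBX5 as lower with CDK11 siRNA in both lines, so the brightest probe set does not speak for all probe sets of a gene. ELL2, a subunit of the super elongation complex of RNA polymerase II, had log2 differences of 0.90 in KHOS cells and 0.78 in U-2OS (limma adjusted p = 0.173). SF3B2, a subunit of the SF3B complex of the U2 snRNP, had -0.70 and -0.80 (limma adjusted p = 0.183). POLR2A, the largest subunit of RNA polymerase II, had -0.51 and -0.45, but against untransfected U-2OS cells 0.09. CSNK2A2, a catalytic subunit of casein kinase 2, had 0.52 and 0.25, whereas against untransfected cells it had -0.16 in KHOS cells and -0.10 in U-2OS. SF3B1 itself, the splicing substrate, had 0.11 and -0.075.

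Among 9 measured genes of the D-type cyclin system of CCND3, 4 were lower and 3 higher in both lines, with medians of -0.19 in KHOS cells and -0.016 in U-2OS, and 0 were beyond 3 SD or passed limma. CDKN1B, which encodes the cell cycle inhibitor p27, had log2 differences of 0.60 in KHOS cells and 0.54 in U-2OS against nonspecific siRNA, and of 1.20 and 0.54 against untransfected cells. CDK6, a catalytic partner of cyclin D3, had -0.42 and -0.52 against nonspecific siRNA, but 0.09 in KHOS against untransfected cells. RB1, the retinoblastoma gene, had 0.55 and 0.33 against nonspecific siRNA and 0.06 and 0.17 against untransfected cells, and its relative RBL2 had -0.44 and -0.33. The limma adjusted p of these 4 genes lay between 0.295 and 0.330.

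Of a list of other cyclins, mostly transcriptional ones, 7 were measured. Of these 2 were lower and 4 higher in both lines than with nonspecific siRNA, with medians of 0.08 in KHOS cells and 0.12 in U-2OS. CCNY, 1 of the 2 lower, is not a transcriptional cyclin and had -0.11 in KHOS cells and -0.04 in U-2OS. CCNT2, a cyclin of the elongation kinase CDK9, had 0.32 and 0.47, and CCNC, the cyclin of the Mediator kinase, had 0.33 and 0.32 against nonspecific siRNA but -0.07 and -0.01 against untransfected cells. CCNQ, the cyclin of CDK10, had -0.30 and -0.16, and CCNK, the partner of CDK12 and CDK13, had 0.13 and 0.08. None of the 7 was beyond 3 SD or passed limma.

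Genes that neighbour CDK11A, CDK11B and CCNL2 on chromosome 1 were also followed, and 10 of 15 were measured. Their medians were 0.014 in KHOS cells and 0.045 in U-2OS, with 2 lower and 5 higher in both lines and 0 beyond 3 SD. SSU72, a phosphatase of the RNA polymerase II tail, had 1.02 and 0.60 against nonspecific siRNA (limma adjusted p = 0.219), but -0.05 and 0.09 against untransfected cells. Its signals in KHOS and U-2OS were thus lower on the nonspecific siRNA arrays, while those with CDK11 siRNA and of untransfected cells lay close together. GNB1 had 0.16 and 0.24, but -0.22 and -0.25 against untransfected cells. INTS11 had 0.02 and 0.27 against nonspecific siRNA, and 0.36 and -0.28 against untransfected cells. ATAD3A had -0.18 and -0.10 against nonspecific siRNA, and 0.05 and 0.04 against untransfected cells. Of the 5 SIN3 and SAP30 genes, related to SAP30BP by name, 2 were lower and 0 higher in both lines, with medians of -0.03 in KHOS cells and -0.13 in U-2OS. SAP30L was lowest, with -0.34 and -0.27 against nonspecific siRNA, but -0.03 and -0.05 against untransfected cells.

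The genes whose pattern was most like that of 212401_s_at were sought among 136 genes whose range was at least 1 log2 unit in each line, by Pearson correlation over the 6 arrays after subtraction of each line's mean. They were URI1 (r = 0.999), RASSF3 (r = 0.995), LEO1 (r = 0.993), CTSZ (r = 0.991) and NKAP (r = 0.991). The 6 arrays are 3 per line and share the same CDK11 siRNA transfections, so that these values are descriptions. URI1 had log2 signals of 9.85 with CDK11 siRNA, 11.19 with nonspecific siRNA and 11.09 untransfected in KHOS cells, and of 10.26, 11.67 and 11.76 in U-2OS. LEO1, a subunit of the PAF1 elongation complex, had 8.91, 10.27 and 10.27 in KHOS cells, and 6.09, 8.17 and 8.06 in U-2OS. NKAP, a nuclear protein that acts in splicing, had 7.70, 9.11 and 9.04 in KHOS cells, and 6.42, 7.67 and 7.84 in U-2OS. In each of these 3 genes the CDK11 siRNA array was the lowest and the controls lay close together, as for CDK11. This pattern follows from their choice by likeness to 212401_s_at.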

How the data were processed

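The authors normalized the arrays with gcrma, which adjusts for background, applies quantiles across arrays and summarises each probe set, and deposited log2 values of all 54675 probe sets. Quantile normalization gives the arrays a common distribution, so a change shared by most genes would not be seen. Probe sets were named from the platform annotation, updated through RefSeq (GRCh38.p14). Of them, 41097 had 1 symbol, 1801 several and 11777 none. All 6 columns were used. The signal limit stands in for the study's filter, without its present and absent calls, and the study's z threshold of 3 was used in each line. limma 3.58.1 (R 4.3.3) was fitted to 16397 kept probe sets with cell line as a block, two-sided, with Benjamini-Hochberg adjustment at 0.05. The fit was also run on simulated arrays with independent noise and known changes. That run checked the code, not the error rate of the test on these arrays. Other steps used Python 3.11.15 with numpy 2.4.6, pandas 2.3.3, matplotlib 3.10.9, scipy 1.17.1 and Biopython 1.88.

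The members and gene lists were chosen with earlier results of these data known. Named genes were every member with every probe set, up to 4 genes of each list with the largest mean difference of the 2 lines, and the 5 genes most like CDK11. SF3B1, CBX5, CCNY and the values of RUNX2 were named outside this rule, after their values were seen. Alternatives covered the filter, scale, threshold and control of the z-score, cyclic loess and median centring, the mean over a gene's probe sets, and the variance prior, block, arrays, unit and filter in limma. Protein and transcript sequences were not used here. The result of 1 further marker is not reported here.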

Additional observations from a re-analysis of the deposited data

Results flagged for a closer look

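Some log2 differences of kept member probe sets had opposite signs in KHOS and U-2OS, and with 1 array per condition this contrast of the lines could not be and was not tested. For CDK11 siRNA minus untransfected, SAP30BP 222475_at had 0.71 in KHOS cells and -0.22 in U-2OS, and CCNL2 222999_s_at had 0.077 in KHOS cells and -0.038 in U-2OS. For nonspecific siRNA minus untransfected, CDK11A/CDK11B 211289_x_at had 0.32 in KHOS cells and -0.34 in U-2OS, 212401_s_at had 0.24 in KHOS cells and -0.085 in U-2OS, and SAP30BP 217965_s_at had -0.038 in KHOS cells and 0.0103 in U-2OS.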

How the results depend on the processing

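Beyond 3 SD, 2 member probe sets were counted in each line, both of CDK11, and this count was 2 also with the median and MAD, at 2 SD, with untransfected cells as control and after cyclic loess. With no filter the count was 6 of 16 in KHOS, 5 lower and 1 higher, and 4 of 16 in U-2OS, 3 lower and 1 higher. More probe sets entered there by construction. The lower ones were of CDK11, and the higher one was the dim CCNL1 1555827_at. With the mean of the 6 arrays above the limit the count was 1 of 7 in each line, since 211289_x_at was left out. The share of all probe sets was not computed for these 2 filters or at 2 SD. With limma, 0 members passed for CDK11 siRNA minus nonspecific siRNA and for CDK11 siRNA minus untransfected, and 2 and 3 passed when the prior variance followed the level. Over all kept probe sets this prior called 211 and 574 for these contrasts and 5 for nonspecific siRNA minus untransfected, against 0 for each under the common prior. A robust prior, no block, only the 4 arrays of a contrast, 1 probe set per gene, no filter and cyclic loess left 0 members past the threshold. For the log2 difference from nonspecific siRNA in each line, cyclic loess moved the values by at most 0.0258 and median centring by at most 0.0263. With untransfected cells as control 29 of 32 values moved by less than 1 SD, and the other 3 became 0.99 for CCNL1 1555827_at, 1.13 for CCNL1 220046_s_at and 0.17 for CCND3 201700_at, all in KHOS. Under that control 8 of the 32 values changed sign, among them CCND3 201700_at in both lines, CCNL2 222999_s_at in KHOS and SAP30BP 222475_at in U-2OS, and under cyclic loess 3 did, each of a probe set without signal. With the mean over the kept probe sets of a gene, no direction turned and SAP30BP in KHOS had 0.46. Each condition has 1 array per line, so leaving out a replicate leaves none, and the values of each line stand in its place. Cell line as a block pairs the conditions within a line, and no other pairing of the arrays exists. Signals near or below the limit, among them all 3 dim CDK11 probe sets, give imprecise ratios.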
